A study of Homo sapiens with 6 samples.

Results

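FOXO factors are forkhead transcription factors that sit at the end of the insulin and PI3K/AKT pathway. When AKT is active it phosphorylates them, 14-3-3 proteins hold them in the cytoplasm and their target genes are quiet. When AKT activity is low they enter the nucleus and activate genes of insulin signalling, stress defence, growth arrest and protein turnover. Because this control acts on the protein, mRNA of the factors and of their targets is only an indirect readout of it.

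The 30 genes described here are the 4 FOXO factors and 26 genes that FOXO factors are known to activate, taken by gene symbol from a table of 60612 genes. All 30 symbols matched a gene, and 29 had enough counts to be tested. The genes were named from textbook knowledge of the pathway, at a time when earlier results of these data were known. The libraries were made from the established cell line PANC-1, a human pancreatic carcinoma, kept in serum-containing medium. There were 3 libraries of cells given 50 µM D(+)-raffinose pentahydrate, a plant trisaccharide, for 24 h, and 3 described only as PANC-1 cells, called untreated below. The description of these 3 names no agent, vehicle or time, whereas a protocol text shared by all 6 samples names raffinose, so the grouping follows the descriptions. Nothing in the labels ties the 3 libraries of a group to separate cultures, and p-values here rest on the spread between libraries, which may be technical. PANC-1 is 1 cell line, and in bulk RNA a change in the share of cells that express a gene cannot be told apart from a change in each cell.

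Estimated counts summed to between 62756117 and 63553897 per raffinose library and between 59723420 and 66063664 per untreated library. Levels are counts scaled to the TMM-adjusted library total (CPM) when libraries are compared, and FPKM, which also divides by transcript length, when genes are compared. Fold changes are on the log2 scale, raffinose over untreated, and come with their standard error (SE) from edgeR's quasi-likelihood fit to the 18863 genes with enough counts. Adjusted p-values are Benjamini-Hochberg values over those genes. The keratin KRT8, the keratin KRT18 and vimentin (VIM) were the abundant carcinoma line markers, with mean levels of 275 and 393, 389 and 521, and 723 and 821 FPKM in raffinose and untreated libraries. The epithelial markers KRT19 and EPCAM were under 1 FPKM in both groups. Markers of other cell types were low, with 1 of 6 fibroblast, 1 of 6 leukocyte and 0 of 4 endothelial genes at 1 FPKM or more, and the T cell gene CD3E had 0 counts in every library.

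No FOXO factor or target passed the edgeR test over all genes. That test called 0.0371% of all genes higher and 0.0848% lower, and adjusted p-values of the 29 tested genes ran from 0.151 for FOXO1 to 0.988 for KLF6. Most of the 29 nonetheless lay on the raffinose side of zero, with 23 positive and 6 negative fold changes (79.3% positive, against 51.0% of all tested genes). Their median log2 fold change was 0.26, against 0.01 for all tested genes. At an unadjusted p under 0.05, 12 of 29 (41.4%) were higher and 1 (3.45%) was lower, where 6.21% of all tested genes were higher and 7.08% lower. The 3 raffinose libraries lay above all 3 untreated ones for 16 of 29 (55.2%) and below them for 1 (3.45%), where the shares over all tested genes were 10.6% and 10.9%. DESeq2 on the same counts called 4 of the genes higher and 0 lower, against 1.59% and 2.43% of all genes it tested. Those 4 were FOXO1, FOXO4, BTG1 and KLHL24. These counts describe a list proposed with earlier results of the same libraries in view and are no test of it.

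**Figure D1:**
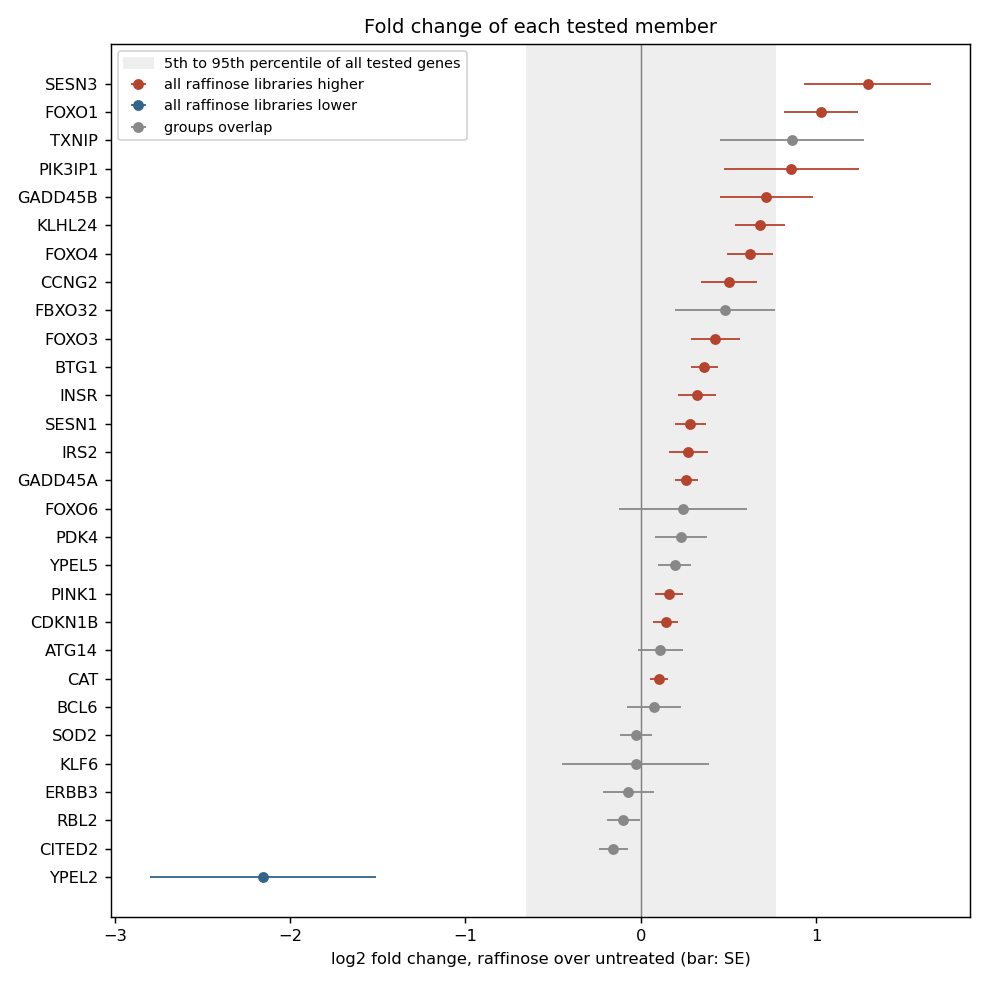
Log2 fold change of raffinose over untreated (x axis) for each of the 29 tested genes (y axis, ordered by fold change), as points with bars of 1 SE. Red points mark the 16 genes whose raffinose libraries all lay above the untreated ones, the blue point the 1 gene (YPEL2) with the opposite order, and the grey band spans the 5th to 95th percentile of all tested genes, from -0.65 to 0.76. Most points lie right of zero, and SESN3, FOXO1, TXNIP and PIK3IP1 lie right of the band.

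Each library was also set against the mean of the untreated ones. Of 29 tested genes, 24, 25 and 24 lay above the untreated mean in raffinose replicates 1, 2 and 3, against 16, 15 and 18 in untreated replicates 1, 2 and 3. Over all tested genes the share above that mean was 49.9% to 50.5% in raffinose libraries, against 49.6% to 50.1% in untreated ones. The raffinose libraries share this comparator and the untreated libraries are part of it, so these counts are not independent of each other. The median log2 ratio to the untreated mean was 0.17, 0.27 and 0.25 in the raffinose libraries and 0.01, 0.00 and 0.05 in the untreated ones. The fold changes were larger among genes with little mRNA. The median log2 fold change was 0.68 for the 9 genes under 1 FPKM, 0.25 for the 14 genes from 1 to 10 FPKM and 0.12 for the 6 genes from 10 to 100 FPKM. Over all tested genes the median also differed by level, at 0.08, 0.02 and -0.05 in these ranges. The part of level in the members' median was not tested.

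**Figure D2:**
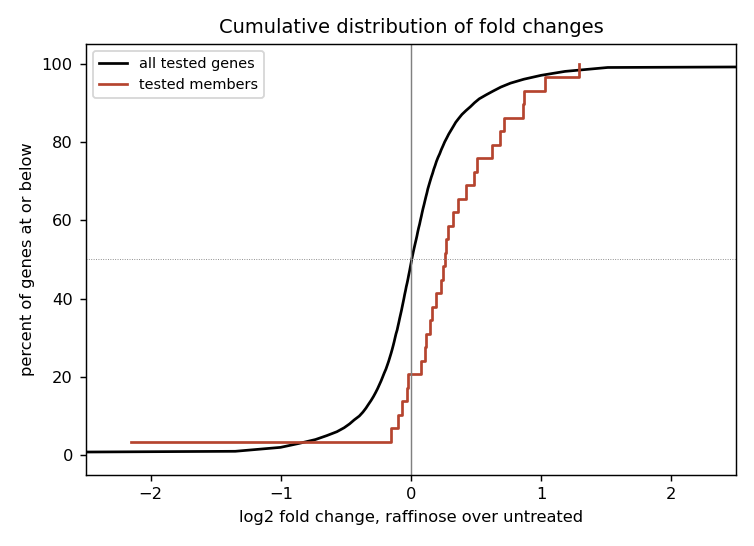
Cumulative share of genes in percent (y axis) at or below each log2 fold change (x axis) for the 29 tested genes of the list (red) and for all 18863 tested genes (black). The red curve crosses 50% at 0.26 and the black curve at 0.01, and the single red step at the far left is YPEL2 at -2.15.

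The 4 genes with the smallest p were FOXO1, BTG1, FOXO4 and KLHL24, and their promoters are shown because promoters are where a FOXO factor could bind a target directly. The 250 bases before the RefSeq start (GRCh38.p14) lie at chr13:40666642-40666891 on the minus strand, chr12:92145847-92146096 on the minus strand, chrX:71095601-71095850 on the plus strand and chr3:183635373-183635622 on the plus strand. The deposited table has the same start for the first 3 and one 13 bases away for KLHL24. Each is written 5′ to 3′ along the gene, with capitals for a match to the FOXO motif GTAAACA, which reads as TGTTTAC on the other strand.
FOXO1: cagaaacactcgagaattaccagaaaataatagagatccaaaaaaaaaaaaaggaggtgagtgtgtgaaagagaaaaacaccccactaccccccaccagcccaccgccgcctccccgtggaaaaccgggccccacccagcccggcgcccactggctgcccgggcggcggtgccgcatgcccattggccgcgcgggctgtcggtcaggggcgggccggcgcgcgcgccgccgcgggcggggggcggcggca
BTG1: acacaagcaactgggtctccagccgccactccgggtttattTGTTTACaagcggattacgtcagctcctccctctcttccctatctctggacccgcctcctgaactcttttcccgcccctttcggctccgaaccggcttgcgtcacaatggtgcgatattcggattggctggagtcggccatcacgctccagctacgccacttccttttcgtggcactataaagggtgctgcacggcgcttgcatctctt
FOXO4: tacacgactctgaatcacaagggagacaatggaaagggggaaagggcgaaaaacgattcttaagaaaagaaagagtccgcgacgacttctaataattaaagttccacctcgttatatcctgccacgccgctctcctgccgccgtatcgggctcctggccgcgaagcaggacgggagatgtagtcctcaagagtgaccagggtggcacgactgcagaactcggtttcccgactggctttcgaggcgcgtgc
KLHL24: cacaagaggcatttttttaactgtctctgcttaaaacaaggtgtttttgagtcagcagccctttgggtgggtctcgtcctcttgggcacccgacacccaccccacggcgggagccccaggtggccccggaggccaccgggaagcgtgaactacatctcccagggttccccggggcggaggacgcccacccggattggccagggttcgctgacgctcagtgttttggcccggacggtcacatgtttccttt

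BTG1 holds the motif in this stretch, and the other 3 do not. The search covered windows from 250 bases before to 50 bases after each start, on both strands, for GTAAACA and for the insulin response element core CAAAACAA, which reads as TTGTTTTG on the other strand. RefSeq windows were found for 26 of 30 members, with 40 windows in all. GTAAACA occurred in 5 of the 40 (12.5%), against 3.42% of all 35116 windows, and CAAAACAA in 1 (2.5%), against 1.68%. No member window held both motifs. The matches of 5 members were in BTG1, TXNIP, FOXO4, YPEL3 and PIK3IP1 for GTAAACA, and that of IRS2 was for CAAAACAA. They lie at chr12:92146039-92146065 and chr1:145996687-145996713 on the minus strand, chrX:71095864-71095890 on the plus strand, and chr16:30096197-30096223, chr22:31292456-31292482 and chr13:109786608-109786634 on the minus strand, with the motif in capitals and the neighbouring bases in lower case. The RefSeq start of YPEL3 is 702 bases from the start in the deposited table, and those of the other 5 are the same. GTAAACA lay upstream of the RefSeq start in BTG1 and TXNIP, and at or after it in YPEL3, PIK3IP1 and FOXO4.
BTG1: cgggtttattTGTTTACaagcggatta
TXNIP: cgggctcctgGTAAACAaggaccgggc
FOXO4: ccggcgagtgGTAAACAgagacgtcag
YPEL3: tgggctcggtGTAAACAagtccaggcg
PIK3IP1: aaagagaggcTGTTTACcagaacagca
IRS2: gagtcacatgTTGTTTTGctcttctta

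Of these 6 genes, BTG1, FOXO4, PIK3IP1 and IRS2 had raffinose libraries all above the untreated ones, TXNIP had a fold change of 0.86 with overlap, and YPEL3 was nearly silent. That order of libraries held for 55.2% of the 29 tested members and for 10.6% of all tested genes. Whether a match goes with the fold change was not tested. FOXO1 and KLHL24, with fold changes of 1.03 and 0.68, had no match in their windows. A match describes letters in a window, not a bound site, and does not tell which forkhead factor would bind there. No match says only that these letters are not in it.

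Among the factors themselves, FOXO3 was by far the most abundant mRNA. It was at 6.32 ± 0.623 FPKM in raffinose libraries and 4.59 ± 0.860 FPKM in untreated ones, FOXO4 at 2.00 ± 0.159 and 1.27 ± 0.139 FPKM, FOXO6 at 0.722 ± 0.120 and 0.592 ± 0.257 FPKM, and FOXO1 at 0.641 ± 0.0617 and 0.305 ± 0.0646 FPKM (SD, n = 3 per group). FOXO3 and then FOXO4 led in every library, while the ranges of FOXO6 and FOXO1 overlapped with each other within both groups. FOXO3 made up 61.6% to 68.0% of the summed FPKM of the 4 factors in raffinose libraries, against 61.4% to 72.3% in untreated ones. The summed level was 9.79, 9.10 and 10.2 FPKM in raffinose replicates 1, 2 and 3 and 5.95, 6.93 and 7.40 FPKM in untreated replicates 1, 2 and 3, so these groups did not overlap.

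FOXO1 (ENSG00000150907, chromosome 13, 40555667 to 40666641, minus strand), the factor best known from insulin signalling, had the smallest p of the list. It had 4.04, 4.93 and 4.61 CPM in raffinose replicates 1, 2 and 3, against 2.62, 1.66 and 2.38 CPM in untreated replicates 1, 2 and 3. Every raffinose library was above every untreated one. The log2 fold change was 1.03 (SE 0.21) with an adjusted p of 0.151 by edgeR and 0.00246 by DESeq2.

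FOXO4 (ENSG00000184481, chromosome X, 71095851 to 71103532, plus strand) had 8.43, 9.94 and 8.62 CPM in raffinose libraries, against 5.36, 5.71 and 6.47 CPM in untreated ones. The groups did not overlap here either, and the gap between them was wider than the range within either. The log2 fold change was 0.62 (SE 0.13), with an adjusted p of 0.159 by edgeR and 0.00459 by DESeq2.

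FOXO3 (ENSG00000118689, chromosome 6, 108559835 to 108684774, plus strand), the factor with the most mRNA, had 60.6, 51.7 and 60.0 CPM in raffinose libraries, against 34.8, 43.9 and 49.5 CPM in untreated ones. The lowest raffinose library lay just above the highest untreated one. The log2 fold change was 0.43 (SE 0.14), with an adjusted p of 0.291 by edgeR and 0.122 by DESeq2. FOXO6, described mostly in brain, had 1.95, 1.82 and 2.41 CPM in raffinose libraries, against 2.4, 1.92 and 0.895 CPM in untreated ones. Its groups overlapped, and the positive fold change of 0.24 (SE 0.36) turned to -0.07 without untreated replicate 3.

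**Figure D3:**
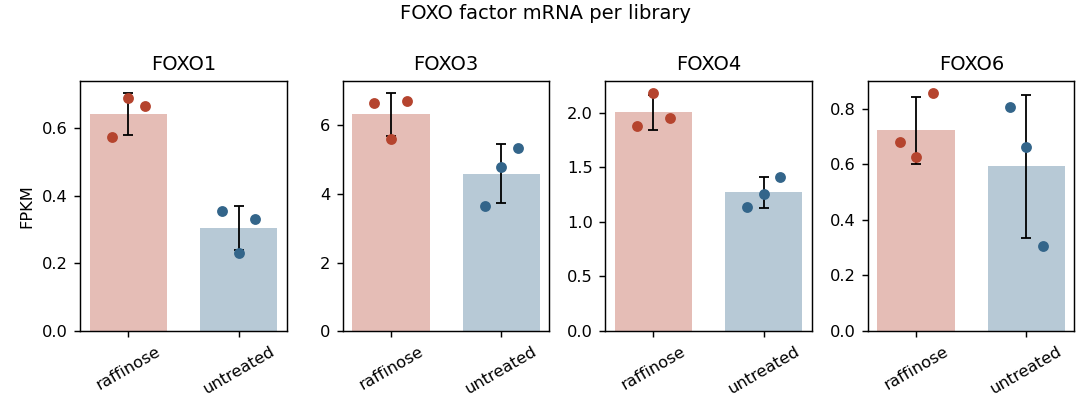
FPKM (y axis, linear, with its own scale in each panel) of FOXO1, FOXO3, FOXO4 and FOXO6 in 3 raffinose libraries (red, left) and 3 untreated libraries (blue, right). Points are libraries, bars the mean and error bars the SD. The groups are separate for FOXO1, FOXO3 and FOXO4 and overlap for FOXO6.

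Targets in growth factor receptor signalling feed back on the pathway that controls FOXO. INSR, the insulin receptor, had 26.8, 24.5 and 27.3 CPM in raffinose libraries, against 18.5, 23.2 and 21.3 CPM in untreated ones. IRS2, the adaptor that links the receptor to PI3K, had 17.4, 18.7 and 16.2 CPM, against 14.1, 13.1 and 16.1 CPM. Both had groups that did not overlap, for IRS2 by a margin of less than 1 CPM. Their log2 fold changes were 0.32 (SE 0.11) and 0.27 (SE 0.11), with edgeR adjusted p of 0.295 and 0.371. PIK3IP1, a membrane protein that restrains PI3K, had 4.71, 5.34 and 3.14 CPM in raffinose libraries, against 3.10, 2.93 and 1.23 CPM in untreated ones. The lowest raffinose and the highest untreated library nearly touched, and the log2 fold change of 0.86 carried an SE of 0.38 (adjusted p = 0.400) and was 0.54 without untreated replicate 3. ERBB3, a receptor for neuregulins, was at 6.48 ± 0.402 CPM in raffinose libraries and 6.80 ± 0.957 CPM in untreated ones (SD, n = 3 each), with a fold change of -0.07 (SE 0.14).

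Of the 7 targets in stress defence and mitochondrial metabolism, 6 (85.7%) had a positive fold change. That compares with 79.3% of the 29 tested members and 51.0% of all tested genes. The role groups were written with earlier results known, so the count is no result about stress defence. The sestrins are stress-induced proteins that restrain mTORC1. SESN1 had 20.2, 20.3 and 19.6 CPM in raffinose libraries, against 15.1, 17.0 and 17.2 CPM in untreated ones. The raffinose values were tight and all above the untreated libraries (log2 fold change 0.28, SE 0.09, edgeR adjusted p = 0.271). SESN3 had 1.11, 2.35 and 2.45 CPM, against 0.747, 0.651 and 1.01 CPM. Raffinose replicate 1 lay close to the untreated libraries and the other two well above them. Its log2 fold change of 1.29 (SE 0.36) was the highest of the 29, on a mean of 0.157 FPKM in raffinose and 0.0620 FPKM in untreated libraries (adjusted p = 0.233).

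TXNIP, an alpha-arrestin that binds thioredoxin and lowers glucose uptake, showed the same split. It had 1.58, 3.52 and 4.26 CPM in raffinose libraries, against 1.15, 2.11 and 1.88 CPM in untreated ones. Raffinose replicate 1 lay within the untreated range, so the groups overlapped (log2 fold change 0.86, SE 0.41, adjusted p = 0.432). With 1 library left out, the fold change ranged from 0.57 without raffinose replicate 3 to 1.19 without raffinose replicate 1, and was not called. CAT, the peroxisomal enzyme that breaks down hydrogen peroxide, had 94.4, 99.1 and 96.2 CPM in raffinose libraries, against 89.7, 89.6 and 89.7 CPM in untreated ones. The difference was small, at 0.11 (SE 0.05), although no library overlapped.

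PINK1, the kinase that marks damaged mitochondria for removal, was at 54.5 ± 4.07 CPM in raffinose libraries and 48.7 ± 2.67 CPM in untreated ones, also without overlap (0.16, SE 0.08). PINK1-AS, which overlaps it on the opposite strand, was at 48.7 ± 2.19 and 48.2 ± 1.55 CPM, and whether counting used the strand is not given in the sources used here. PDK4, which inhibits pyruvate dehydrogenase, was at 6.14 ± 0.972 and 5.24 ± 0.153 CPM with overlapping groups, and its fold change of 0.23 was 0.096 without raffinose replicate 3. SOD2, the mitochondrial superoxide dismutase, was at 27.4 ± 2.44 and 27.9 ± 1.38 CPM (SD, n = 3 per group throughout). Its fold change of -0.03 (SE 0.09) changed sign with the setting. SOD2 overlaps WTAP on the opposite strand, which had a fold change of 0.10 (SE 0.09).

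Growth arrest targets had 5 positive and 1 negative fold change, and the groups did not overlap for those 5 (83.3%). All raffinose libraries were higher for 55.2% of the 29 tested members and 10.6% of all tested genes. The role groups were written with earlier results known, so this is no result about growth arrest. BTG1, an antiproliferative partner of the CCR4-NOT deadenylase, had 35.2, 32.3 and 31.3 CPM in raffinose libraries, against 26.1, 25.7 and 25 CPM in untreated ones. The gap between the groups was wider than the range within either (log2 fold change 0.36, SE 0.08, adjusted p = 0.159 by edgeR and 0.00847 by DESeq2). BTG1 (ENSG00000133639, chromosome 12, 92140278 to 92145846, minus strand) is 1 of the genes above with GTAAACA, upstream of its start as in TXNIP. GADD45A, a stress sensor induced on growth arrest, had 56.5, 54.5 and 52.6 CPM, against 46.9, 43.3 and 46.3 CPM. It too had a clear gap at a modest size (0.26, SE 0.07), with an adjusted p of 0.201 by edgeR and 0.0546 by DESeq2.

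GADD45B, its relative, had 25.7, 50.2 and 28.0 CPM in raffinose libraries, against 21.2, 18.7 and 23.3 CPM in untreated ones. Raffinose replicate 2 was far above the other two, and the log2 fold change of 0.72 (SE 0.26) became 0.35 without it. CCNG2, an atypical cyclin that slows the cycle, had 12.3, 16.4 and 16.1 CPM, against 12.0, 10.4 and 9.19 CPM. Raffinose replicate 1 was only just above the highest untreated library (0.50, SE 0.16, adjusted p = 0.274).

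CDKN1B, the CDK inhibitor p27, was at 55.0 ± 0.972 CPM in raffinose libraries and 49.9 ± 3.35 CPM in untreated ones (SD, n = 3 each). The fold change was 0.14 (SE 0.07) without overlap. RBL2, the retinoblastoma relative p130, was at 31.8 ± 3.06 and 34.1 ± 1.86 CPM with overlapping groups (-0.10, SE 0.09). AKTIP overlaps RBL2 on the opposite strand and had a fold change of 0.35 (SE 0.14).

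The 3 targets that are transcriptional regulators had 1 positive and 2 negative fold changes and no separated groups. Of the 29 tested members, 79.3% were positive, against 51.0% of all tested genes. Higher without overlap were 55.2% of these members and 10.6% of all tested genes. KLF6, a zinc finger factor, had 138, 164 and 46.0 CPM in raffinose libraries, against 110, 123 and 122 CPM in untreated ones. Raffinose replicate 3 was far below the other 5 libraries, and raffinose replicate 2 was the highest. The fold change was -0.03 (SE 0.42) with all libraries and 0.35 without raffinose replicate 3, not called either way. BCL6, a transcriptional repressor, was at 11.2 ± 0.210 and 10.7 ± 2.07 CPM, and CITED2, which competes for the coactivators CBP and p300, at 117 ± 7.79 and 130 ± 10.1 CPM in raffinose and untreated libraries (SD, n = 3 each). The fold change of CITED2 was -0.16 (SE 0.08).

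Among targets in protein turnover, KLHL24, an adaptor of a cullin ubiquitin ligase, had 10.1, 9.72 and 13.1 CPM in raffinose libraries, against 7.13, 6.76 and 6.57 CPM in untreated ones. All raffinose values were above the untreated range, and replicate 3 was the highest. KLHL24 (ENSG00000114796) lies on chromosome 3, 183635610 to 183684519, plus strand, and held neither motif in its window. The log2 fold change was 0.68 (SE 0.14), with an adjusted p of 0.160 by edgeR and 0.00492 by DESeq2. FBXO32, the ubiquitin ligase subunit atrogin-1 known from muscle wasting, had 1.78, 3.03 and 1.85 CPM, against 1.21, 1.78 and 1.77 CPM. Its groups met at the edge, and the fold change of 0.48 (SE 0.29, adjusted p = 0.531) was 0.19 without raffinose replicate 2. ATG14, a subunit of the autophagy lipid kinase complex, was at 16.1 ± 1.21 and 14.9 ± 2.07 CPM in raffinose and untreated libraries (SD, n = 3 each). Its fold change of 0.11 (SE 0.13) was 0.00046 without untreated replicate 1.

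The YPEL genes encode small zinc-binding proteins. YPEL5 had 30.1, 34.0 and 34.9 CPM in raffinose libraries, against 30.4, 30.0 and 26.3 CPM in untreated ones (0.19, SE 0.10, adjusted p = 0.451). YPEL2 was the only member with every raffinose library below every untreated one, but on very few counts. It had estimated counts of 5, 6 and 12 in raffinose libraries, against 50, 14 and 37 in untreated ones (-2.15, SE 0.65, adjusted p = 0.257). A read pair seems to add 4 to a count, so these values stand for still fewer read pairs. YPEL3, the member that was not tested, had a count of 4 in raffinose replicate 2 and of 2 in untreated replicate 1, and 0 in the other 4 libraries, where a count of 0 allows up to 3 read pairs, or 12 counts and at most 0.203 CPM, by counting error alone.

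**Figure D4:**
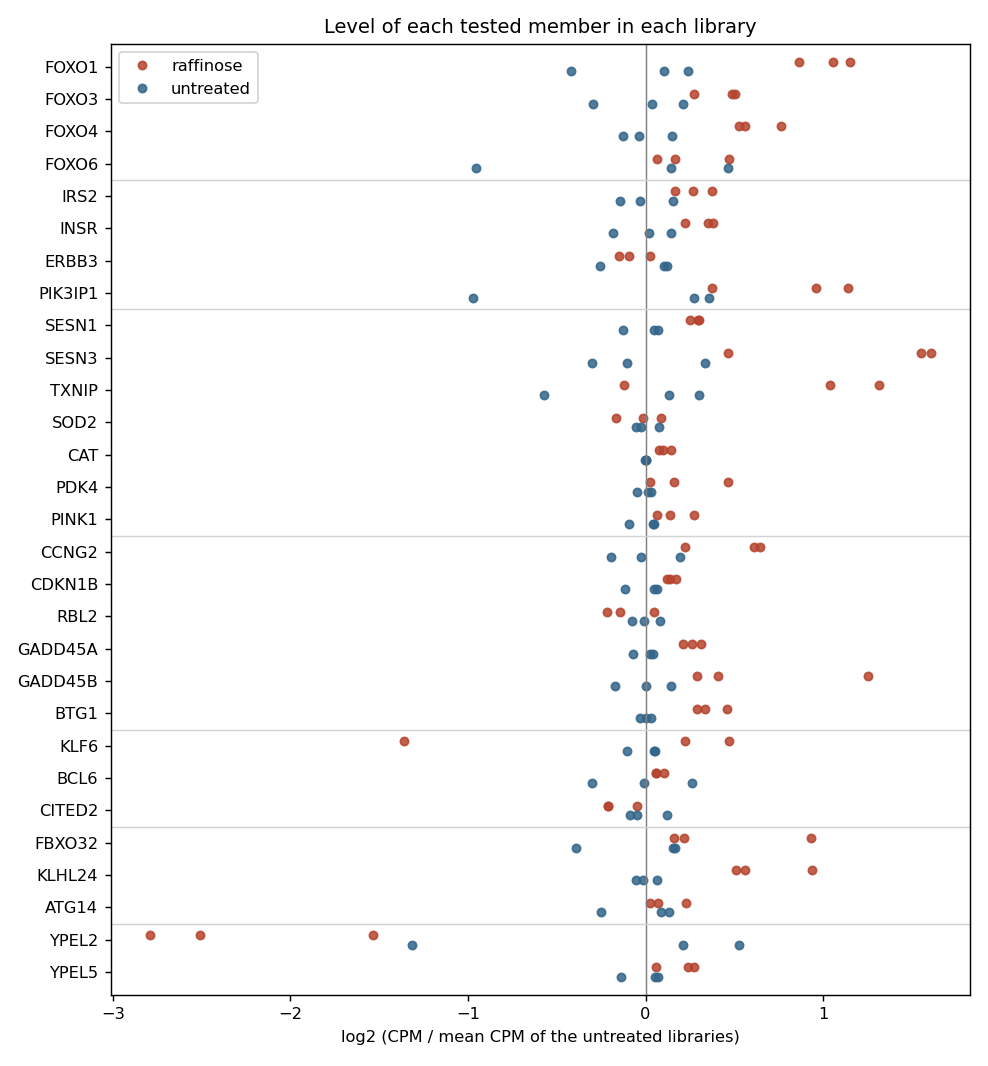
Log2 of CPM over the mean CPM of the untreated libraries (x axis) for each tested gene (y axis), with 3 raffinose libraries in red and 3 untreated libraries in blue and grey lines between the role groups. Red points lie right of the blue ones for 16 genes. Single raffinose libraries stand apart from the other red points, to the left for KLF6, SESN3 and TXNIP and to the right for GADD45B.

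Further genes of the pathway were read from lists written for this comparison, also with earlier results of these data known. Their counts are therefore no independent test of the members. Of 26 other FOXO targets, 20 were tested with 15 positive and 5 negative fold changes and a median of 0.28. EdgeR called 0 of them, 6 (30.0%) were higher and 1 (5.0%) lower at an unadjusted p under 0.05, and DESeq2 called 2 higher. Over all tested genes, 6.21% were higher and 7.08% lower at that p, and DESeq2 called 1.59% higher and 2.43% lower. ATG12, an autophagy conjugation protein, came nearest to the threshold. It had 84.4, 81.1 and 87.4 CPM in raffinose libraries, against 62.4, 58.3 and 57.2 CPM in untreated ones. The groups were far apart beside their spread (log2 fold change 0.51, SE 0.06, adjusted p = 0.0691 by edgeR and 9.21e-07 by DESeq2). The pro-apoptotic BH3-only gene BCL2L11 (BIM) had 10.3, 11.3 and 4.80 CPM, against 3.83, 3.89 and 3.63 CPM (1.22, SE 0.31, adjusted p = 0.208 by edgeR and 0.00988 by DESeq2). Its raffinose replicate 3 lay closer to the untreated libraries than to the other raffinose ones. SESN2, the third sestrin, was at 55.8 ± 3.03 CPM in raffinose libraries and 45.9 ± 2.96 CPM in untreated ones (SD, n = 3 each; 0.28, SE 0.08). The gluconeogenic targets G6PC and PCK1, known from liver, had 0 counts in every library.

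Genes that FOXO factors are known to repress showed no common direction, with 2 positive and 3 negative fold changes among 5. EdgeR called 0 of them, 2 (40.0%) were higher and 1 (20.0%) lower at an unadjusted p under 0.05, and DESeq2 called 1 higher. The shares of all tested genes were 6.21% and 7.08% at that p, and 1.59% higher by DESeq2. The cyclin CCND2 had 2.92, 2.10 and 2.58 CPM in raffinose libraries, against 1.34, 0.806 and 1.42 CPM in untreated ones (1.09, SE 0.27). All raffinose libraries lay above the untreated ones. FOXM1, a forkhead factor of proliferating cells, was at 150 ± 2.86 and 189 ± 32.0 CPM (-0.34, SE 0.12). Of the 5 genes, 2 (40.0%), FOXM1 among them, were lower in all raffinose libraries and 1 (20.0%) was higher. Over all tested genes, 10.9% were lower and 10.6% higher in this way. MYC had 11.4, 65.7 and 61.3 CPM in raffinose libraries, against 13.1, 7.99 and 12.3 CPM in untreated ones (2.05, SE 0.62, adjusted p = 0.263). Raffinose replicate 1 lay within the untreated range, as it did for TXNIP.

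Of 28 regulators of FOXO factors, 27 were tested, and 15 were positive and 12 negative. EdgeR called 0, with 2 (7.41%) higher and 3 (11.1%) lower at an unadjusted p under 0.05, and DESeq2 called 1 higher and 1 lower. These shares were near those of all tested genes at that p, 6.21% and 7.08%. DESeq2 called 1.59% of all genes higher and 2.43% lower. SFN, the 14-3-3 sigma protein, was at 129 ± 6.59 CPM in raffinose libraries and 164 ± 6.55 CPM in untreated ones (-0.35, SE 0.06, adjusted p = 0.136 by edgeR and 0.00269 by DESeq2). SIRT1, a deacetylase that acts on FOXO factors, was at 41.5 ± 4.01 and 29.7 ± 4.04 CPM (0.49, SE 0.12), and the arginine methyltransferase PRMT1 at 230 ± 21.7 and 281 ± 10.6 CPM (-0.29, SE 0.08; SD, n = 3 per group). The groups were separate for each of these 3, which had the smallest p of the list. Over the 27 tested, 14.8% were higher and 11.1% lower without overlap, against 10.6% and 10.9% of all tested genes.

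Of 22 other forkhead factors, 17 were tested, with 6 positive and 11 negative fold changes and a median of -0.06. Neither edgeR nor DESeq2 called any, with 2 (11.8%) higher and 4 (23.5%) lower at an unadjusted p under 0.05, against 6.21% and 7.08% of all tested genes. Without overlap, 3 (17.6%) were higher and 4 (23.5%) lower, against 10.6% and 10.9% of all tested genes. FOXL1 was at 4.87 ± 0.0378 CPM in raffinose libraries and 6.34 ± 0.521 CPM in untreated ones (-0.38, SE 0.12), and FOXA1 at 1.77 ± 0.603 and 0.930 ± 0.182 CPM (0.93, SE 0.32; SD, n = 3 per group). FOXM1, given above among the genes FOXO factors repress, is also in this list. All 4 FOXO factors were positive beside this list, FOXO6 with overlapping groups, although the difference between the families was not tested.

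Relatives of the targets, such as other alpha-arrestins and pyruvate dehydrogenase kinases, had 21 positive and 8 negative fold changes among 29 tested, with a median of 0.10. SESN2, CDKN1A and GADD45G are in this list and among the other FOXO targets. EdgeR called 0, 6 (20.7%) were higher and 1 (3.45%) lower at an unadjusted p under 0.05, and DESeq2 called 3 higher. Of all tested genes, 6.21% were higher and 7.08% lower at that p, and DESeq2 called 1.59% higher. ARRDC4, an alpha-arrestin related to TXNIP, had 2.53, 2.29 and 2.70 CPM in raffinose libraries, against 0.872, 1.4 and 1.5 CPM in untreated ones. All 3 raffinose libraries were above the untreated ones (0.996, SE 0.25, adjusted p = 0.199 by edgeR and 0.0280 by DESeq2). ARRDC3 was at 50.6 ± 4.09 and 38.3 ± 0.246 CPM (0.40, SE 0.08), and PDK3, a relative of PDK4, at 17.1 ± 1.91 and 12.2 ± 0.802 CPM (0.49, SE 0.11; SD, n = 3 per group).

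**Figure D5:**
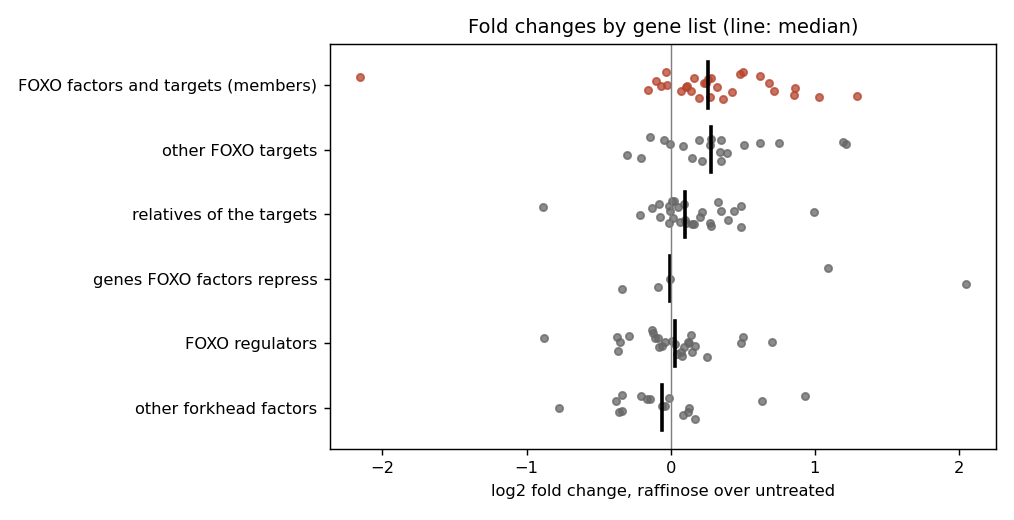
Log2 fold change of raffinose over untreated (x axis) for each tested gene, in rows for the FOXO factors and targets (red) and 5 further lists (grey), with a black line at each median and points spread vertically for legibility. The medians are 0.26 for the FOXO list, 0.28 for other FOXO targets, 0.10 for relatives, 0.00 for genes FOXO factors repress, 0.03 for regulators and -0.06 for other forkhead factors.

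Of the 6 carcinoma line markers, 3 (50.0%) were lower in all raffinose libraries, against 10.9% of all tested genes. KRT18 was at 1416 ± 100.4 CPM in raffinose libraries and 1944 ± 153 CPM in untreated ones (-0.46, SE 0.08), KRT8 at 2240 ± 245 and 3291 ± 434 CPM (-0.55, SE 0.12) and KRT7 at 3.79 ± 0.418 and 5.67 ± 0.465 CPM (-0.58, SE 0.14). The summed level of the 6 leukocyte markers ranged from 17.6 to 24.4 CPM in raffinose libraries and from 33.3 to 41.3 CPM in untreated ones. Nearly all of it was CD68, a lysosomal glycoprotein, at 21.1 ± 3.82 and 36.8 ± 4.11 CPM (-0.81, SE 0.16), while LYZ had a fold change of 0.29 (SE 0.74) and CD14 of -0.23 (SE 1.54). The 6 fibroblast markers summed to between 40.3 and 45.3 CPM in raffinose libraries and between 35.1 and 38.4 CPM in untreated ones. COL1A1 made up most of this at 40.2 ± 2.13 and 34.1 ± 0.385 CPM (0.24, SE 0.07; SD, n = 3 per group), while PDGFRB (0.32, SE 0.79) and LUM (0.00, SE 0.29) were low. The 4 endothelial markers summed to between 0.124 and 0.703 CPM and between 0.135 and 0.899 CPM, with KDR at -0.36 (SE 0.95). EdgeR called 0 of these markers. At an unadjusted p under 0.05 COL1A1 was higher, and KRT18, KRT8, KRT7, VIM and CD68 were lower, against 6.21% and 7.08% of all tested genes. DESeq2 called KRT18, KRT8, KRT7 and CD68 lower, against 2.43% of all genes it tested. Their part in the values of the FOXO genes was not tested.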

How the data were processed

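The members and lists were chosen with earlier results of these data known. Poly(A) RNA libraries were made with dUTP in the second strand and read as pairs of 150 bases, per the labels' protocols. Tools named in the submitters' processing notes, with no role, are HISAT2 2.0.4, cutadapt 1.9, DESeq2, StringTie 1.3.4d and edgeR. The build is not given in the sources used here, nor is the annotation or the strand setting. Of 30 members, 18 have the same lowest coordinate as in GENCODE 29 (GRCh38), and 9 the same lowest and highest coordinates.

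The authors deposited an FPKM value and an estimated count per gene and library, per the file headers. FPKM is 0.0001 where no read was counted. Among the estimated counts, all whole in the deposited table, 4 is far more frequent than 3 or 5 (1382, 456 and 286 genes in raffinose replicate 1), so 1 read pair seems to add 4 and the counts overstate fragments.

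Counts were tested as deposited across all genes with edgeR 4.0.16 in R 4.3.3 (filterByExpr with a minimum count of 10, TMM, glmQLFit, glmQLFTest). The SE is the size of the fold change over the square root of F. Calls needed a p under 0.05 after Benjamini-Hochberg adjustment over all tested genes. Alternatives were DESeq2 1.42.0, its size factors, no filter, a filter at FPKM 1, limma 3.58.1 on log2(FPKM + 1) and log2(FPKM + 0.1), counts divided by 4, the replicate number as a block, and each library left out. The common biological coefficient of variation was 27.1%.

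All 30 members are named, and of each other list the 3 tested genes with the smallest p, besides genes that overlap a member on the opposite strand. G6PC, PCK1, VIM, KRT19, EPCAM and CD3E were named after their values were seen. Promoter sequences are RefSeq's, GRCh38.p14.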

Additional observations from a re-analysis of the deposited data

How the results depend on the processing

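Of the 29 tested members, 25 kept the sign of their fold change in all 14 alternatives that could test them, 21 of them positive. With edgeR and limma 0 members were called in any setting, and DESeq2 called 4. The median log2 fold change of 0.26 was 0.18 with limma on log2(FPKM + 1) and 0.30 on log2(FPKM + 0.1), where FPKM scaling and the pseudocount enter the value, and 0.24 to 0.29 with each library left out. SOD2 turned to 0.0054 and 0.0084 with these limma fits. With libraries left out, SOD2 ranged from -0.087 to 0.039, FOXO6 from -0.070 to 0.54, KLF6 from -0.36 to 0.35 and BCL6 from -0.059 to 0.22. The cause of these reversals was not tested. Over all genes, edgeR called 7 higher and 16 lower, DESeq2 253 and 386, the filter at FPKM 1 15 and 27, counts divided by 4 11 and 24, and fits without 1 library 0 to 15 and 4 to 13. Without untreated replicate 3, 0 were higher and 4 lower, with 1969 at an unadjusted p under 0.05. With the replicate block the median was 0.28 and 0 genes were called, with 1932 at an unadjusted p under 0.05. Deviations of same-numbered libraries had correlations of -0.01, -0.03 and 0.01, so the numbers were not taken as pairs. Small fold changes also moved by over 1.5 times, PINK1 to 0.10 without raffinose replicate 2 and CDKN1B to 0.088 without untreated replicate 2. CITED2 moved to -0.092 without untreated replicate 1, with ERBB3 from -0.18 to -0.0076 and RBL2 from -0.18 to -0.043. Larger ones moved with limma on log2(FPKM + 1), among them FOXO1 from 1.03 to 0.33, SESN3 from 1.29 to 0.12 and KLHL24 from 0.68 to 0.32. In that fit TXNIP moved from 0.86 to 0.30 and YPEL2 from -2.15 to -0.056. Of the 9 members under 1 FPKM in the mean of the groups, YPEL2, SESN3, FBXO32, FOXO6, TXNIP, PIK3IP1 and FOXO1 rest on few read pairs. FOXO1, called by DESeq2, had estimated counts of 107 to 312 per library, and PIK3IP1 of 73 to 338. ERBB3 and KLHL24 were also under 1 FPKM, with counts of 337 to 476 and 389 to 840.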
